A study of Mus musculus with 44 samples.

Results

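Tumour necrosis factor (Tnf), its receptors Tnfrsf1a and Tnfrsf1b, and 7 genes of the machinery that carries or restrains its signal are described here across stimulated mouse macrophages. The 7 are Traf1, Birc3, Tnfaip3, Tnip1, Tnip3, Zc3h12a and Malt1. The genes were picked with earlier results of these data known, by name and not by a cut on measured values, and were found by symbol in the deposited count table. The 10 genes are 10 of the 46078 in the table, and each of the 10 was among the 14537 that passed the filter on low counts and were tested.

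The series measured polyadenylated RNA in 44 libraries of peritoneal macrophages from C57BL/6 mice. Thioglycolate, an irritant that draws macrophages into the peritoneum, was injected 4 days before collection, cells of several mice were pooled into 1 isolate, and those that adhered within 24 h were kept in DMEM with 10% fetal bovine serum. Control cultures had nothing added, and the others received lipopolysaccharide (LPS, a bacterial cell wall product) at 100 ng/mL, interleukin 4 (IL-4, a type 2 cytokine) at 10 ng/mL, or an extract of H9c2 cells, a line derived from rat heart, at 10 µg/mL, each for 8, 24 or 72 h. Each of the 12 groups had 4 libraries, except control, cell extract and IL-4 at 72 h and cell extract at 24 h, which had 3. By its title, the series asked whether molecules released by damaged cells move macrophages towards the inflammatory M1 state. Replicates were cultures of 1 isolate, so every p-value measures the spread between these cultures and not between animals.

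By identity and position (GRCm38, GENCODE M21), the ligand Tnf is ENSMUSG00000024401, chr17:35199381-35202007, minus strand. The receptors are Tnfrsf1a (ENSMUSG00000030341, chr6:125349362-125362484, plus strand) and Tnfrsf1b (ENSMUSG00000028599, chr4:145213463-145246870, minus strand). The signalling proteins are Traf1, an adaptor bound by Tnfrsf1b (ENSMUSG00000026875, chr2:34941750-34961772, minus strand), and Birc3, the ubiquitin ligase cIAP2 (ENSMUSG00000032000, chr9:7848699-7873186, minus strand). The brakes are Tnfaip3, the ubiquitin-editing enzyme A20 (ENSMUSG00000019850, chr10:19000910-19015657, minus strand), and its partners Tnip1 (ABIN-1; ENSMUSG00000020400, chr11:54910785-54962917, minus strand) and Tnip3 (ABIN-3; ENSMUSG00000044162, chr6:65525313-65634040, plus strand). Zc3h12a (Regnase-1; ENSMUSG00000042677, chr4:125118423-125127840, minus strand) is an RNase that destroys inflammatory mRNAs, and Malt1 (paracaspase; ENSMUSG00000032688, chr18:65430938-65479067, plus strand) is a scaffold and protease known to cut both A20 and Regnase-1. Exons of no member overlapped those of another annotated gene.

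Tnf is made by activated macrophages as a membrane protein that is cleaved off the surface. It signals through Tnfrsf1a (TNFR1), which carries a death domain and is found on most cells, and through Tnfrsf1b (TNFR2), which lacks one and is found mainly on immune cells. Both receptors recruit Traf and cIAP proteins, whose ubiquitin chains lead to activation of NF-kB, and NF-kB in turn is known to induce Tnf and several genes that limit the pathway, among them Tnfaip3 (A20).

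The promoters of 4 members are shown because 2 of them, Tnfaip3 and Tnip1, held an NF-kB type motif (GGG, any 3 bases, TTCC), and the other two, Tnf and Tnip3, had the largest log2 change with LPS and with IL-4 at 8 h. This motif is narrower than the usual NF-kB consensus, so a window without it can still hold letters that fit the consensus, as the Tnip3 window does. Windows run from 250 bases before to 50 bases after the transcript start, 5′ to 3′ on the gene's strand, from RefSeq on GRCm38.p6, and capitals mark this motif on either strand. The starts used by RefSeq for Tnip3 and for Tnfaip3 lie inside the longer genes annotated by GENCODE, so nearly all bases shown before these starts lie within the annotated gene.
Tnf (chr17:35201958-35202257, minus strand): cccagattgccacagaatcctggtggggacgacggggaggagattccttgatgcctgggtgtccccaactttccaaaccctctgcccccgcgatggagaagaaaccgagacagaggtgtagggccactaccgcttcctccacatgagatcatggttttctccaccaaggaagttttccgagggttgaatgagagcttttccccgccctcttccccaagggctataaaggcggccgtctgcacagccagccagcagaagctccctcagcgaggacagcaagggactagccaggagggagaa
Tnfaip3 (chr10:19015361-19015660, minus strand): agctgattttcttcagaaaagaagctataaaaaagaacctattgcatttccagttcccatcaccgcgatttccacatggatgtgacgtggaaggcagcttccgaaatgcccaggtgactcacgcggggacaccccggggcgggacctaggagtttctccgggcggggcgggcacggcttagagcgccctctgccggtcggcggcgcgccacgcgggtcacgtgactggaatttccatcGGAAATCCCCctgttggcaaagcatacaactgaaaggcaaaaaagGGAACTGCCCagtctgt
Tnip1 (chr11:54962891-54963190, minus strand): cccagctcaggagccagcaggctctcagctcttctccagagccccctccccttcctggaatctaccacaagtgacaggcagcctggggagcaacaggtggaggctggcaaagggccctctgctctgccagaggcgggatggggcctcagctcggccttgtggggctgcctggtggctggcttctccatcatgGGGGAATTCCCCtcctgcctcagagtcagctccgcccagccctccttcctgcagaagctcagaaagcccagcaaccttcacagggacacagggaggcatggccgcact
Tnip3 (chr6:65590148-65590447, plus strand): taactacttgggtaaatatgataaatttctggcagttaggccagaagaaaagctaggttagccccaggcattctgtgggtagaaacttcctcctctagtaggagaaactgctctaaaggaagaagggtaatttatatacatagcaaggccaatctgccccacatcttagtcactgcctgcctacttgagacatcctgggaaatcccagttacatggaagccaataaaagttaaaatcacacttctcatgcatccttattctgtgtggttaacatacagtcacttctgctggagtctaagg

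RefSeq windows were matched by symbol for 9 of the 10 members, 10 windows in all. The NF-kB type motif, searched on both strands like the others, was found in 2 of the 9 members and in 5.56% of all 32851 windows of this length. In the Tnfaip3 window it stood as GGAAATCCCC, beginning 12 bases upstream of the start, and as GGAACTGCCC, beginning 33 bases past it. A window at a second Tnfaip3 start held GGGTTATTCC. In Tnip1 the 2 matches overlapped, GGGGAATTCC and GGAATTCCCC, beginning 58 and 56 bases upstream. The AP-1 type motif TGANTCA was found in 1 member, Tnfaip3, 136 bases upstream, and in 7.81% of all windows. The STAT type motif (TTC, any 4 bases, GAA), searched after the IL-4 values of Tnip3 were known, was found in 1 member, Tnfaip3, 242 bases upstream, and in 6.95% of all windows. Each match is a run of letters in a short window, and binding was not measured.

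The shallowest library held 0.908 M gene counts (M, mega, as in CPM) and the deepest 26.6 M, and 5 libraries held fewer than 2 M. In 7 libraries, each labelled replicate 3, over 10% of gene and ambiguous reads were ambiguous. The lowest count of any member in a library was 7, for Traf1 in IL-4 24 h replicate 1, the shallowest library. All 10 macrophage markers looked up were present in every group, while the markers of T and NK cells, B cells, mast cells and eosinophils, and dendritic cells summed to at most 33.1 CPM in any library. Neutrophil markers summed to at most 528 CPM, in LPS at 72 h, nearly all from S100a8, while its partner S100a9 averaged 0.146 CPM over the libraries. Markers of mesothelial cells and fibroblasts summed to 511 to 1131 CPM in control at 72 h, against 155 to 288 CPM in LPS, 183 to 214 CPM in cell extract and 83.2 to 193 CPM in IL-4 at 72 h and 133 to 154 CPM in control at 8 h. Their part in the results at 72 h was not tested, and in these bulk cultures fewer cells of a type and less RNA per cell cannot be told apart.

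Levels are counts per M after TMM scaling (CPM), given in the order of the replicate labels, and changes are log2 values of 1 model fitted to all 44 libraries. The threshold for a call was 0.05 on the p of edgeR's quasi-likelihood test, adjusted over all tested genes by the Benjamini-Hochberg method. To set the genes beside each other, CPM was divided by the length of each gene's merged exons in kb. In control cultures at 8 h the highest mean on that scale was that of Tnfrsf1b, 95.8 ± 20.6 CPM per kb (SD, n = 4), followed by Tnfrsf1a at 32.3 ± 2.81. Tnf came next at 18.5 ± 26.9 CPM per kb, an average that rests on 1 library, then Tnip1 at 14.0 ± 1.83, and Traf1 was lowest at 0.986 ± 0.575. With LPS at 8 h Tnf was the highest of the 10 at 1783 ± 131 CPM per kb, ahead of Tnfrsf1b at 494 ± 23.1, Tnfrsf1a at 99.3 ± 6.27 and Tnfaip3 at 91.7 ± 2.65. With IL-4 at 24 h Tnip3 stood at 7.76 ± 0.926 CPM per kb, against 1.09 ± 0.192 in its control, so a gene that was next to lowest in unstimulated cells had a mean between those of Malt1 (6.58 ± 1.78) and Zc3h12a (8.15 ± 3.25).

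**Figure D1:**
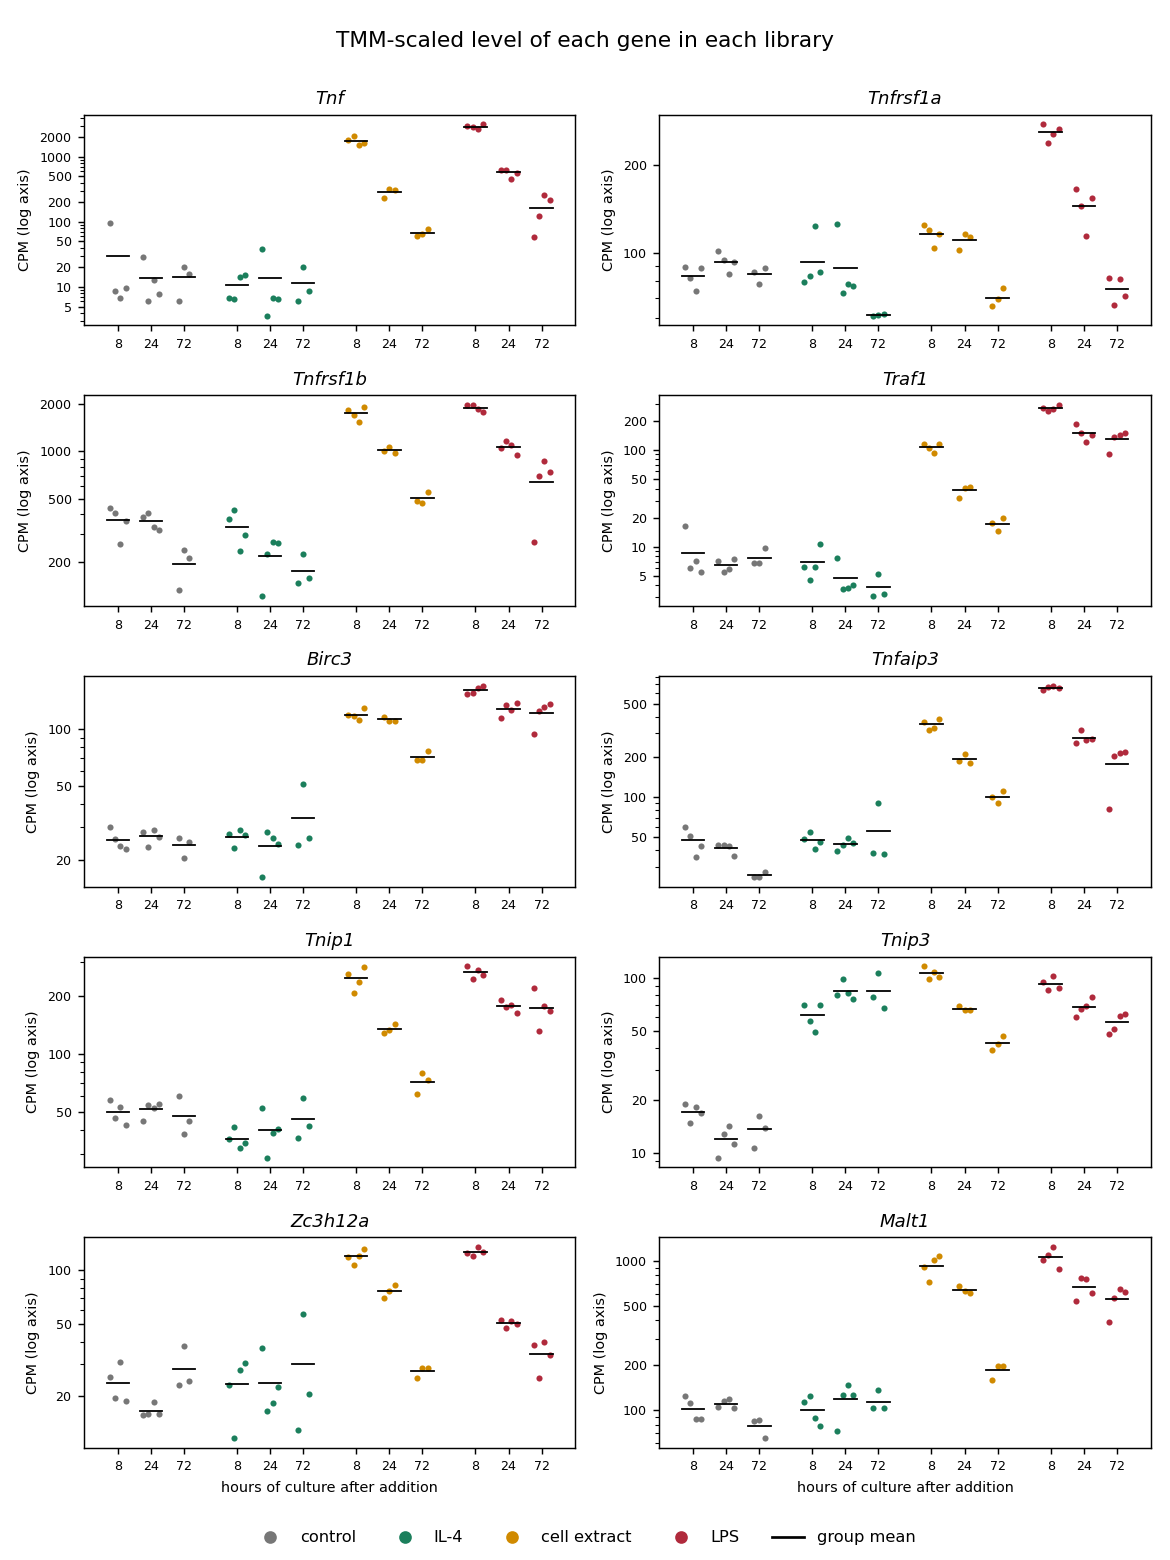
Level of each of the 10 genes in counts per M (vertical axis, log scale) in every library, by stimulus (colour) and hours of culture (horizontal axis); points are libraries and bars are group means. Tnf ran from 2637 to 3151 CPM with LPS at 8 h and from 1495 to 2085 CPM with cell extract, and Tnip3 stood at 49.1 to 107 CPM in the IL-4 libraries against 9.39 to 19.1 CPM in the controls.

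The ligand Tnf rose with LPS and with cell extract at every time, was highest at 8 h, and was not called with IL-4 at any time. In control cultures at 8 h it stood at 96.4, 8.76, 6.71 and 9.70 CPM, so that replicate 1 was far above the other three. LPS at 8 h gave 2993, 2908, 2637 and 3151 CPM (95.9-fold higher; log2 6.58 ± 0.70, SE; edgeR quasi-likelihood adjusted p = 2.17e-10). Cell extract at 8 h gave 1846, 2085, 1495 and 1653 CPM (58.1-fold higher; log2 5.86 ± 0.68, SE; edgeR quasi-likelihood adjusted p = 4.39e-09). Every stimulated library at 8 h was above every control library. Without control replicate 1 the log2 change was 8.43 for LPS and 7.71 for cell extract.

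At 24 h Tnf stood at 28.9, 6.10, 12.8 and 7.84 CPM in control, 638, 639, 460.3 and 563 CPM with LPS (43.4-fold higher; log2 5.44 ± 0.68, SE; edgeR quasi-likelihood adjusted p = 1.26e-08) and 236, 323 and 311 CPM with cell extract (replicates 2, 3 and 4; 21.9-fold higher; log2 4.45, adjusted p = 1.27e-06). At 72 h it stood at 6.15, 19.9 and 16.1 CPM in control (replicates 1, 3 and 4), 58.8, 125, 257 and 221 CPM with LPS (log2 3.63, adjusted p = 0.000137) and 60.5, 64.2 and 77.2 CPM with cell extract (replicates 2, 3 and 4; log2 2.32, adjusted p = 0.0173). Ordered by mean level, the groups ran from LPS at 8 h through cell extract at 8 h, LPS at 24 h, cell extract at 24 h and LPS at 72 h to cell extract at 72 h, and the controls and IL-4 groups lay below. Neighbours in that order did not overlap down to cell extract at 24 h, but LPS at 72 h overlapped both cell extract at 24 h and cell extract at 72 h. Cell extract at 72 h was no longer called without control 72 h replicate 1 (log2 1.91, adjusted p = 0.102).

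With IL-4 Tnf stood at 6.86, 6.56, 14.3 and 15.2 CPM at 8 h, 38.1, 3.62, 6.69 and 6.52 CPM at 24 h and 6.18, 19.9 and 8.60 CPM at 72 h (replicates 2, 3 and 4). Except for the lowest, IL-4 24 h replicate 2, these lay within the range of all control libraries. At 8 h the change against control was log2 -1.55, adjusted p = 0.157, and without control replicate 1 it was 0.30.

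The 2 receptors moved unequally. Tnfrsf1a, the death-domain receptor, stood at 89.7, 82.2, 74.0 and 88.8 CPM in control at 8 h and 274, 236, 254 and 265 CPM with LPS (3.07-fold higher; log2 1.62 ± 0.13, SE; edgeR quasi-likelihood adjusted p = 2.52e-13). Cell extract at 8 h gave 124, 120.1, 104 and 116 CPM (1.39-fold higher; log2 0.47, adjusted p = 0.00484). Every LPS library was above every cell extract library, and these were above every control. The rise with LPS was smaller at 24 h (114 to 164 against 84.7 to 101 CPM; log2 0.63, adjusted p = 0.000168). At 72 h neither LPS (66.3 to 81.9 CPM) nor cell extract (65.9 to 76.0 CPM) was called against control (78.6 to 88.8 CPM), although no cell extract library of 72 h reached a control. Cell extract at 24 h was not called either (adjusted p = 0.248), although its libraries (102 to 116 CPM) lay above every control of that time. It was called as higher in a fit of the 2 groups alone (log2 0.26, adjusted p = 0.0434). The same held without the libraries of under 2 M counts (log2 0.30, adjusted p = 0.0327).

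Tnfrsf1b, the receptor without a death domain, stood at 437, 407, 258 and 361 CPM in control at 8 h. It rose to 1962, 1957, 1841 and 1784 CPM with LPS (5.16-fold; log2 2.37 ± 0.24, SE; edgeR quasi-likelihood adjusted p = 7.53e-11). Cell extract gave 1820.0, 1704, 1535 and 1899.6 CPM (4.76-fold; log2 2.25 ± 0.24, SE; edgeR quasi-likelihood adjusted p = 6.84e-10). The LPS and cell extract libraries overlapped, and both stood apart from the controls. Tnfrsf1b was still called with both stimuli at 24 h (942 to 1154 CPM with LPS and 976 to 1068 CPM with cell extract, against 319 to 408 CPM) and at 72 h (265 to 866 and 474 to 555 against 132 to 236 CPM), with adjusted p from 7.68e-07 to 0.000162. LPS 72 h replicate 1, a library of 1.10 M counts, held 265 CPM and the other three at least 701 CPM.

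Within a library the ratio of reads from the 2 receptors needs no library scaling. Tnfrsf1b reads per Tnfrsf1a read were 4.87, 4.96, 3.48 and 4.07 in control at 8 h and 7.16, 8.28, 7.25 and 6.73 with LPS (difference in mean log2 ratio 0.77; exact permutation test, two-sided, p = 0.0286, adjusted over 6 ratio tests 0.0343). With cell extract at 8 h they were 14.7, 14.2, 14.7 and 16.3 (difference in mean log2 ratio 1.80; exact permutation test, two-sided, p = 0.0286, adjusted over 6 ratio tests 0.0343). All cell extract libraries were above all LPS libraries, which were above all controls. At 24 h the ratio was 6.36, 8.00, 9.65 and 6.14 with LPS and 3.80, 4.31, 3.91 and 3.44 in control (difference in mean log2 ratio 0.94; exact permutation test, two-sided, p = 0.0286, adjusted over 6 ratio tests 0.0343). A p of 0.0286 is the smallest that 4 against 4 cultures can give. Same-numbered cultures deviated together in these comparisons, and when signs were exchanged within pairs the exact permutation p was 0.125, the smallest that 4 pairs can give.

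The signalling genes Traf1 and Birc3 both rose with LPS and with cell extract at all 3 times. Traf1, which is itself known as an NF-kB target, stood at 16.2, 6.07, 7.03 and 5.43 CPM in control at 8 h. LPS gave 275, 252, 262 and 292 CPM (31.2-fold higher; log2 4.96 ± 0.25, SE; edgeR quasi-likelihood adjusted p = 7.41e-20). Cell extract gave 115, 105, 92.9 and 114 CPM (12.3-fold higher; log2 3.62 ± 0.24, SE; edgeR quasi-likelihood adjusted p = 1.07e-15). The 3 groups did not overlap, with LPS highest. With LPS Traf1 then held 186, 149.7, 121 and 144 CPM at 24 h and 91.6, 137, 144 and 150.0 CPM at 72 h. With cell extract it held 32.1, 40.6 and 41.8 CPM at 24 h and 17.6, 14.6 and 19.7 CPM at 72 h, the latter 2.35-fold above control (log2 1.23, adjusted p = 0.00284). With LPS the libraries of 24 and 72 h overlapped, and with cell extract those of 72 h were below all of 24 h.

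Birc3, a ligase that adds ubiquitin at the receptor and limits cell death, stood at 20.6 to 30.1 CPM in the controls of the 3 times. It held 153 to 171, 115 to 137 and 94.5 to 137 CPM with LPS at 8, 24 and 72 h (log2 2.65, adjusted p = 1.6e-17 at 8 h). With cell extract it held 112 to 130.2, 110.5 to 117 and 68.7 to 77.0 CPM (log2 2.21, adjusted p = 9.22e-15 at 8 h). No library of either stimulus overlapped a control.

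The brake Tnfaip3 rose with LPS and with cell extract at all 3 times and was higher with LPS at 8 h. In control at 8 h it stood at 60.2, 50.9, 35.5 and 43.2 CPM. LPS gave 639, 669, 684 and 659 CPM (13.9-fold higher; log2 3.80 ± 0.23, SE; edgeR quasi-likelihood adjusted p = 1.4e-17). Cell extract gave 365, 321, 332 and 385 CPM (7.37-fold higher; log2 2.88 ± 0.22, SE; edgeR quasi-likelihood adjusted p = 6.28e-14). The 3 groups did not overlap. At 24 h it held 254, 321, 268 and 273 CPM with LPS and 186, 212 and 181 CPM with cell extract, against 36.4 to 43.97 CPM in control. At 72 h it held 81.9, 202, 213 and 217 CPM with LPS, 100.3, 90.4 and 110.4 CPM with cell extract and 25.4, 25.2 and 27.3 CPM in control. LPS 72 h replicate 1 was below the cell extract range, and the other LPS libraries were above it.

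Of the 2 A20-binding proteins, both were called with LPS and with cell extract, and in the fit of all groups only Tnip3 was called with IL-4. Tnip1 stood at 38.0 to 60.4 CPM in the controls and rose with LPS to 245 to 284 CPM at 8 h (log2 2.42, adjusted p = 4e-16), and was still at 132 to 219.8 CPM at 72 h. With cell extract it held 206 to 283 CPM at 8 h (log2 2.31, adjusted p = 6.02e-15) and 62.0 to 79.2 CPM at 72 h (log2 0.56, adjusted p = 0.0216). That last call was lost when control 72 h replicate 3 or 4, or cell extract 72 h replicate 3 or 4, was left out (log2 0.43 to 0.55, adjusted p 0.0591 to 0.161), without the libraries of over 10% ambiguous reads (adjusted p = 0.302) and in a fit of the 2 groups alone (0.0628). With IL-4 at 8 h Tnip1 stood at 32.3 to 41.4 CPM, below the controls of that time at 42.6 to 57.1 CPM. Tnip1 was called as lower with IL-4 under the replicate block at 8 h (log2 -0.47, adjusted p = 0.0401) and at 24 h (log2 -0.44, adjusted p = 0.0441).

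Tnip3 rose with all 3 stimuli and was the only member called as higher with IL-4 at each time. In control it stood at 19.1, 14.8, 18.2 and 16.8 CPM at 8 h, 9.39, 12.8, 14.3 and 11.2 CPM at 24 h and 10.6, 16.4 and 13.9 CPM at 72 h. With IL-4 it held 70.3, 57.0, 49.1 and 69.9 CPM at 8 h (3.63-fold higher; log2 1.86 ± 0.15, SE; edgeR quasi-likelihood adjusted p = 1.56e-12). At 24 h IL-4 gave 80.6, 99.3, 82.8 and 76.1 CPM (7.02-fold higher; log2 2.81 ± 0.15, SE; edgeR quasi-likelihood adjusted p = 9.08e-17). The IL-4 libraries of both times lay far above every control. At 72 h IL-4 gave 78.3, 107 and 67.6 CPM (replicates 2, 3 and 4; 6.30-fold higher; log2 2.65 ± 0.18, SE; edgeR quasi-likelihood adjusted p = 5.4e-14).

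LPS and cell extract raised Tnip3 to overlapping levels at 8 h. LPS gave 95.2, 85.7, 104 and 88.4 CPM (5.43-fold; log2 2.44 ± 0.15, SE; edgeR quasi-likelihood adjusted p = 1.29e-17) and cell extract 117, 99.0, 109 and 101 CPM (6.21-fold; log2 2.63 ± 0.15, SE; edgeR quasi-likelihood adjusted p = 1.31e-17). Both were above the IL-4 libraries of 8 h. By 72 h the order of the group ranges was the reverse, with 67.6 to 107 CPM under IL-4, 48.2 to 62.9 CPM under LPS and 38.7 to 46.6 CPM under cell extract, and the 3 ranges did not overlap. Between cell extract and LPS at 8 h the difference was log2 0.19 (95% interval -0.08 to 0.47; adjusted p = 0.323), and differences between IL-4 and the other stimuli were not tested.

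Zc3h12a, the RNase, and Malt1, which cuts it, both rose with LPS and with cell extract at 8 h, and at 72 h Malt1 was called with both stimuli and Zc3h12a with neither. The difference between the 2 genes was not tested. Zc3h12a held 125, 121, 135 and 126 CPM with LPS and 118, 108, 120.3 and 132 CPM with cell extract at 8 h, against 25.6, 19.5, 30.7 and 18.8 CPM in control (log2 2.44, adjusted p = 3.56e-10 for LPS and log2 2.35, adjusted p = 2.07e-09 for cell extract). At 72 h its libraries stood at 25.1 to 39.7 CPM with LPS and 25.2 to 28.5 CPM with cell extract, within the control range of 23.1 to 38.0 CPM or, for 2 LPS libraries, just above it, and neither was called. Malt1 held 1013, 1105, 1241 and 881 CPM with LPS and 910.4, 726, 1008 and 1077 CPM with cell extract at 8 h, against 86.6 to 124 CPM in control (10.4-fold, adjusted p = 4.65e-18, and 9.08-fold, adjusted p = 1.21e-16). At 72 h Malt1 was still at 390.4, 561, 646 and 618 CPM with LPS (log2 2.82, adjusted p = 7.69e-14) but at 159, 199 and 196 CPM with cell extract (log2 1.23, adjusted p = 2.18e-05), against 64.8 to 85.7 CPM in control.

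**Figure D2:**
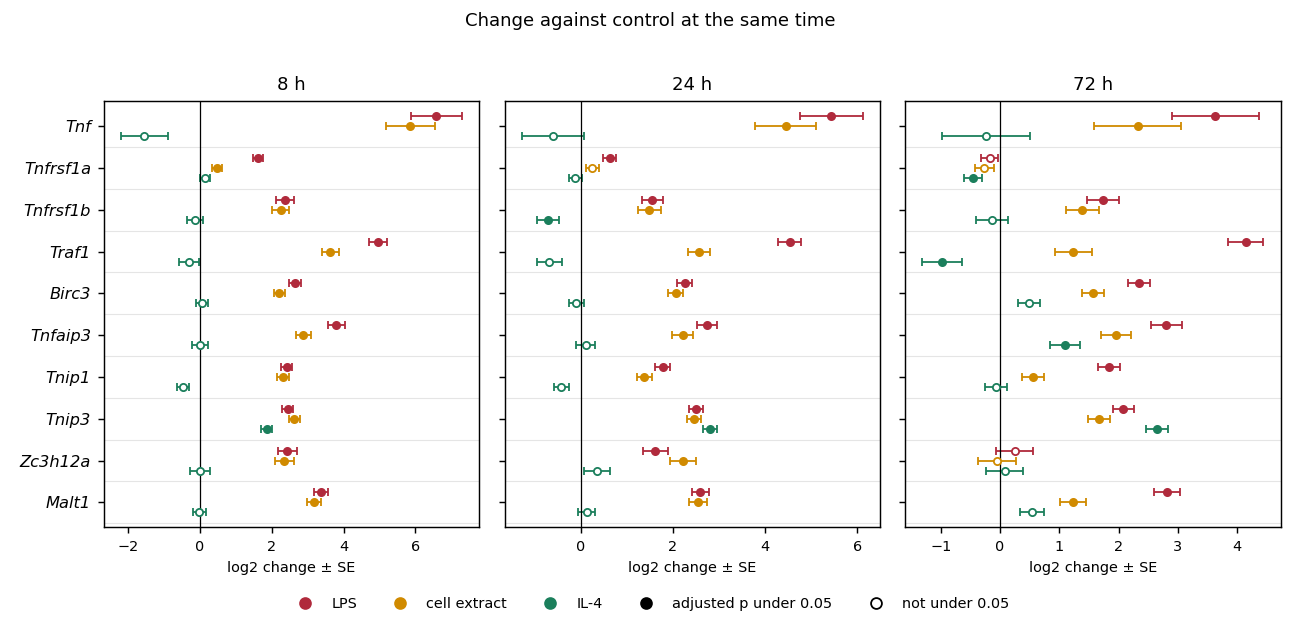
Fitted log2 change against control at the same time (horizontal axis, with standard error) of the 10 genes at 8, 24 and 72 h, for LPS, cell extract and IL-4; filled points had an adjusted p under 0.05. At 8 h the points for LPS and cell extract lay right of 0 for every gene, from 0.47 (Tnfrsf1a, cell extract) to 6.58 (Tnf, LPS), while with IL-4 only Tnip3, at 1.86, was filled.

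Counted together, the 10 genes rose with LPS in 10 of 10 cases at 8 h, where 21.3% of all tested genes rose and 24.1% fell. At 24 h 10 rose (beside 18.6% up and 19.3% down of all genes), and at 72 h 8 rose (16.1% up and 15.4% down of all), the exceptions being Tnfrsf1a and Zc3h12a. With cell extract 10 rose at 8 h (13.0% up and 17.2% down of all), 9 at 24 h (11.7% and 10.4%; the exception was Tnfrsf1a) and 8 at 72 h (14.2% and 12.2%; the exceptions were Tnfrsf1a and Zc3h12a). No member fell with either stimulus. The members' median log2 change, beside that of all tested genes, was 2.54 against 0.00 for LPS at 8 h, 2.22 against 0.05 for LPS at 72 h, 2.49 against -0.06 for cell extract at 8 h and 1.31 against 0.00 for cell extract at 72 h. With IL-4 1 member rose and none fell at 8 h (4.29% and 4.04% of all), 1 rose and 1 fell at 24 h (4.74% and 4.76%), and 2 rose and 2 fell at 72 h (13.2% and 10.5%). The LPS, cell extract and IL-4 comparisons at a given time share their control libraries.

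Beside Tnip3, the calls with IL-4 were few and small. Tnfrsf1b fell at 24 h to 121, 225, 265 and 263 CPM against 384, 408, 331 and 319 CPM in control (log2 -0.71 ± 0.23, SE; edgeR quasi-likelihood adjusted p = 0.0463). The groups did not overlap, but the call was lost without IL-4 24 h replicate 1 or 2 or without any 1 of the 4 controls (log2 -0.76 to -0.51, adjusted p 0.0511 to 0.216). At 72 h Tnfaip3 rose to 38.1, 91.0 and 37.4 CPM (replicates 2, 3 and 4) against 25.4, 25.2 and 27.3 CPM (log2 1.10 ± 0.26, SE; edgeR quasi-likelihood adjusted p = 0.00143). Its replicate 3 was far above the other two, and the change was not called without that library (log2 0.55, adjusted p = 0.0811) or in a fit of the 2 groups alone (adjusted p = 0.0657).

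At 72 h of IL-4 Tnfrsf1a stood at 61.1, 61.4 and 61.8 CPM and was lower than in control at 86.3, 78.6 and 88.8 CPM (log2 -0.46 ± 0.16, SE; edgeR quasi-likelihood adjusted p = 0.0280). Traf1 stood at 3.07, 5.24 and 3.25 CPM and was lower than in control at 6.78, 6.76 and 9.63 CPM (log2 -0.98 ± 0.33, SE; edgeR quasi-likelihood adjusted p = 0.0290). Neither overlapped its control. The Tnfrsf1a call was lost when control 72 h replicate 1 or 4 or any 1 of the 3 IL-4 libraries was left out (adjusted p 0.0674 to 0.0905), and the Traf1 call without control 72 h replicate 1 or 4 or IL-4 72 h replicate 2 or 4 (adjusted p 0.0643 to 0.119). At each time 2 members that were not called had an unadjusted p under 0.05, namely Tnf and Tnip1 at 8 h, Traf1 and Tnip1 at 24 h, and Birc3 and Malt1 at 72 h. Tnip1 was called as lower at 24 h without IL-4 24 h replicate 1 (log2 -0.52, adjusted p = 0.0409), and Birc3 as higher at 72 h without IL-4 72 h replicate 2 or 4 (log2 0.64 to 0.69). For Birc3 the IL-4 libraries of 72 h stood at 24.1, 51.0 and 26.5 CPM, with replicate 3 apart, against 26.5, 20.6 and 25.2 CPM in control. Over all libraries left out in turn, that Birc3 change ran from log2 0.08 to 0.69 (adjusted p 0.00854 to 0.819).

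**Figure D3:**
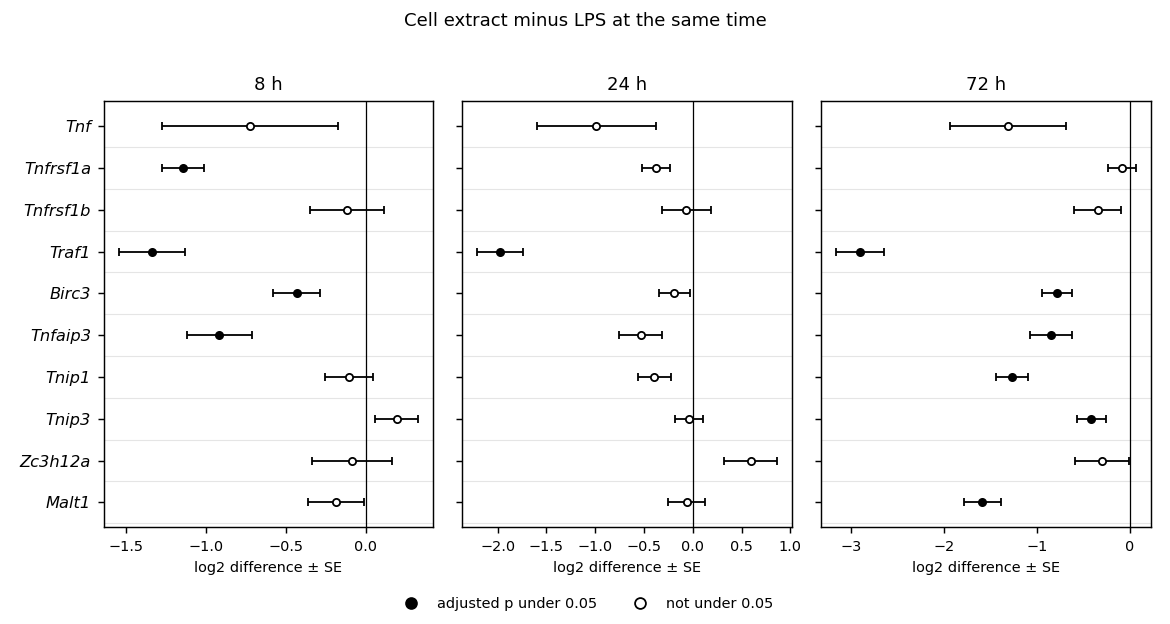
Fitted log2 difference of cell extract minus LPS at the same time (horizontal axis, with standard error) of the 10 genes; filled points had an adjusted p under 0.05. Traf1 was filled at each time, at -1.34, -1.97 and -2.91, and the points of Tnfrsf1b were open at each time.

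Set directly against LPS, cell extract gave lower Traf1 at each time, lower Tnfrsf1a, Birc3 and Tnfaip3 at 8 h, and lower levels of 6 members at 72 h. At 8 h 4 members were lower and none higher (15.1% and 14.0% of all tested genes). Traf1 was 2.53-fold lower (log2 -1.34 ± 0.21, SE; edgeR quasi-likelihood adjusted p = 1.74e-06), Tnfrsf1a 2.21-fold lower (log2 -1.15 ± 0.13, SE; edgeR quasi-likelihood adjusted p = 3.48e-09), Tnfaip3 1.89-fold lower (log2 -0.92, adjusted p = 0.000406) and Birc3 1.35-fold lower (log2 -0.43, adjusted p = 0.0229). In each of these 4, and in Tnf, every cell extract library was below every LPS library, and groups did not overlap for 32.4% of all genes. The Birc3 call was lost when any 1 of the 4 LPS libraries or cell extract replicate 2 or 3 was left out (log2 -0.38 to -0.32, adjusted p 0.0826 to 0.162), and without the libraries of over 10% ambiguous reads (log2 -0.30, adjusted p = 0.256).

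At 24 h 1 member, Traf1, was lower (3.92-fold; log2 -1.97 ± 0.24, SE; edgeR quasi-likelihood adjusted p = 2.74e-08) and none was higher (8.76% and 8.06% of all). Groups did not overlap for 5 of the 10 members, against 35.5% of all genes, and Tnfrsf1a was called as lower when LPS 24 h replicate 3 was left out (log2 -0.48, adjusted p = 0.0267). In a fit of the 2 groups alone 6 members were called, Zc3h12a as higher (log2 0.58, adjusted p = 0.000394) and Traf1, Tnf, Tnfrsf1a, Tnfaip3 and Tnip1 as lower. At 72 h 6 members were lower and none higher (11.4% and 11.0% of all), and groups did not overlap for 5 members and 32.5% of all genes. Traf1 was 7.52-fold lower (log2 -2.91 ± 0.26, SE; edgeR quasi-likelihood adjusted p = 3.36e-11), Malt1 3.01-fold lower (log2 -1.59 ± 0.20, SE; edgeR quasi-likelihood adjusted p = 1.05e-07) and Tnip1 2.42-fold lower (log2 -1.28 ± 0.17, SE; edgeR quasi-likelihood adjusted p = 4.43e-07). Tnfaip3 (log2 -0.85, adjusted p = 0.00502) and Birc3 (log2 -0.79, adjusted p = 0.000429) were lower as well. For Tnfaip3 the groups overlapped, and the call was lost without the libraries of over 10% ambiguous reads (log2 -0.60, adjusted p = 0.157) and in a fit of the 2 groups alone (adjusted p = 0.0601). Tnip3 was lower too (log2 -0.42, adjusted p = 0.0447), a call that was lost when any 1 of the 7 libraries was left out (log2 -0.49 to -0.34, adjusted p 0.0581 to 0.185).

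In the fit of all groups, Tnf and Tnfrsf1b were not called between the 2 stimuli at any time. For Tnf the cell extract libraries of 8 h (1495 to 2085 CPM) lay below those of LPS (2637 to 3151 CPM), as they did at 24 h. In the fit of all groups the differences were log2 -0.72 at 8 h (95% interval -1.84 to 0.39; adjusted p = 0.369), -0.99 at 24 h (adjusted p = 0.315) and -1.32 at 72 h (adjusted p = 0.128). In a fit of the 2 groups alone the adjusted p was 0.000353, 0.000143 and 0.0471 at nearly the same log2 values, and the cause of this change was not tested. For Tnfrsf1b the 95% interval of the log2 difference at 8 h ran from -0.58 to 0.35. At 72 h Tnfrsf1b was called as lower with cell extract without the libraries of under 2 M counts (log2 -0.56, adjusted p = 0.0197). LPS 72 h replicate 1, which is among those libraries, held 265 CPM. The other LPS libraries of 72 h held at least 701 CPM, above the cell extract range of 474 to 555 CPM.

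The course over time separated the members. In LPS cultures 9 of the 10 fell from 8 to 24 h (20.5% of all tested genes fell and 16.7% rose), with Birc3 the exception (log2 -0.33, adjusted p = 0.0753), and 4 fell from 24 to 72 h (16.3% of all fell and 18.9% rose). The exception of Birc3 depended on the processing, and its libraries of 8 h (153 to 171 CPM) lay above those of 24 h (115 to 137 CPM). Birc3 was called as lower with DESeq2's Wald test (adjusted p = 0.0377), with RLE scaling (0.0404) and in a fit of the 2 groups alone (0.0107). Tnf fell 5.08-fold in the first interval (log2 -2.35 ± 0.58, SE; edgeR quasi-likelihood adjusted p = 0.00147) and 3.43-fold in the second (log2 -1.78 ± 0.57, SE; edgeR quasi-likelihood adjusted p = 0.0144). Tnfrsf1a, Tnfrsf1b and Tnfaip3 also fell in both intervals, with changes in the second of log2 -0.94, -0.72 and -0.62. For Traf1, Birc3, Tnip1, Tnip3 and Malt1 the 24 and 72 h libraries of LPS overlapped and none was called in the main fit. Tnip3 was called as lower without the libraries of over 10% ambiguous reads (log2 -0.47, adjusted p = 0.0485) and without those of under 2 M counts (log2 -0.37, adjusted p = 0.0467). Zc3h12a did not overlap and missed the threshold (log2 -0.59, adjusted p = 0.0763), passing it without LPS 72 h replicate 1 (log2 -0.73, adjusted p = 0.0465). The second fall of Tnfaip3 was lost without LPS 24 h replicate 2 (adjusted p = 0.0589), and in a fit of the 2 groups alone neither it (0.0766) nor that of Tnfrsf1b (0.0714) was called. The fall of Tnip3 from 8 to 24 h (log2 -0.44, adjusted p = 0.0104) was lost without LPS 8 h replicate 1, 2 or 3 or LPS 24 h replicate 3 (adjusted p 0.0513 to 0.144).

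Taking the control cultures of each time into account, the effect of LPS at 72 h was smaller than at 8 h for 4 members (14.3% of all genes moved that way and 15.7% the other way). These were Tnf (difference of log2 changes -2.95 ± 0.90, SE; edgeR adjusted p = 0.0104), Zc3h12a (-2.19; 3.55e-05), Tnfrsf1a (-1.79; 2.86e-09) and Tnfaip3 (-0.99; 0.0137). Without control 8 h replicate 1 the difference for Tnf was -4.80 and Traf1 was called as well (-1.32), and without control 72 h replicate 3 the Tnf difference was not called (log2 -2.61, adjusted p = 0.0510). Without the libraries of over 10% ambiguous reads neither Tnf (log2 -2.57, adjusted p = 0.0738) nor Tnfaip3 (log2 -1.04, adjusted p = 0.0508) was called. Tnip1 missed the threshold (adjusted p = 0.0554) and passed when control 8 h replicate 1, control 72 h replicate 3, LPS 8 h replicate 2 or 4 or LPS 72 h replicate 1 was left out (log2 -0.77 to -0.64). It also passed without the libraries of over 10% ambiguous reads (adjusted p = 0.0404) and without those of under 2 M counts (0.0102). Both Tnip1 and Malt1 were called with DESeq2's Wald test (adjusted p = 0.0286 and 0.0310) and with RLE scaling (0.0411 and 0.0453). Malt1 had missed the threshold in the main fit (log2 -0.55, adjusted p = 0.116).

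For cell extract the effect was smaller at 72 h for 9 members (8.75% of all genes, with 13.1% the other way), with Tnfrsf1b the exception (log2 -0.86, adjusted p = 0.0790), which was called without control 72 h replicate 1 (log2 -1.06, adjusted p = 0.0387). Tnfrsf1b was called as well with DESeq2's Wald test (adjusted p = 0.0188) and with RLE scaling (0.0311). So it was in a fit of the compared groups alone (0.0222) and without the libraries of under 2 M counts (0.0127). The largest differences were those of Tnf (-3.54 ± 0.94, SE; edgeR adjusted p = 0.00539), Zc3h12a (-2.41; 3.44e-05), Traf1 (-2.39; 1.98e-05), Malt1 (-1.95; 1.27e-06) and Tnip1 (-1.75; 8.96e-07). Without control 8 h replicate 1 the difference for Tnf was -5.39, and without the libraries of over 10% ambiguous reads 5 of the 9 were called, not Tnf (log2 -2.92, adjusted p = 0.0762), Birc3, Tnfaip3 or Tnip3 (adjusted p = 0.108, 0.181 and 0.0619). Those of Birc3 and Tnfaip3 were near the threshold (adjusted p = 0.0492 and 0.0375). The Birc3 call was lost with the replicate block (log2 -0.64, adjusted p = 0.0581), a contrast in which the numbers paired the cultures of 8 h, and without 1 of control 8 h replicates 2, 3 or 4, control 72 h replicates 1 or 4, cell extract 8 h replicates 1 or 4 or any of the 3 cell extract libraries of 72 h (log2 -0.70 to -0.54, adjusted p 0.0632 to 0.170), and the Tnfaip3 call without control 8 h replicates 3 or 4, control 72 h replicates 1 or 4 or the same 5 cell extract libraries (log2 -0.99 to -0.84, adjusted p 0.0509 to 0.0826).

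For IL-4 the effect was larger at 72 h for Tnip3 (0.80; edgeR adjusted p = 0.0162) and Tnfaip3 (1.09; 0.0206) and lower for Tnfrsf1a (-0.60; 0.0393), that is 2 up and 1 down beside 9.51% and 6.57% of all genes. Tnip3 was not called without IL-4 72 h replicate 3 or control 72 h replicate 1 (log2 0.61 to 0.63), Tnfaip3 not without IL-4 72 h replicate 3 or control 8 h replicate 1 (log2 0.56 to 0.95), and Tnfrsf1a not without any 1 of 9 libraries (control 8 h replicate 2 or 3, IL-4 8 h replicate 3 or any of the 6 libraries of 72 h; log2 -0.63 to -0.45). Traf1 was called without control 8 h replicate 1 (log2 -1.18).

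In unstimulated cultures 2 members fell from 8 to 72 h (7.16% of all genes fell and 6.38% rose). Tnfrsf1b went from 437, 407, 258 and 361 to 132, 236 and 212 CPM (log2 -0.92 ± 0.26, SE; edgeR quasi-likelihood adjusted p = 0.0141), and Tnfaip3 from 60.2, 50.9, 35.5 and 43.2 to 25.4, 25.2 and 27.3 CPM (log2 -0.88 ± 0.24, SE; edgeR quasi-likelihood adjusted p = 0.0137). Neither overlapped between the times. Tnfrsf1b was lost without control 72 h replicate 1 (log2 -0.72, adjusted p = 0.136) and in a fit of the 2 groups alone (adjusted p = 0.0534), and Tnfaip3 without control 72 h replicate 1 or 3 or control 8 h replicate 1 (log2 -0.87 to -0.74, adjusted p 0.0513 to 0.0698).

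Since Tnf and the A20 gene rose together, their reads were set against each other within each library. Tnf reads per Tnfaip3 read were 1.60, 0.172, 0.189 and 0.225 in control at 8 h, with replicate 1 apart from the others. With LPS they were 4.69, 4.34, 3.85 and 4.78 at 8 h, 2.52, 1.99, 1.72 and 2.06 at 24 h (difference in mean log2 ratio -1.10; exact permutation test, two-sided, p = 0.0286, adjusted over 6 ratio tests 0.0343) and 0.718, 0.620, 1.20 and 1.02 at 72 h (difference in mean log2 ratio -2.36; exact permutation test, two-sided, p = 0.0286, adjusted over 6 ratio tests 0.0343). The LPS libraries of the 3 times did not overlap, and the ratio was lowest at 72 h. In control at 72 h the ratio was 0.242, 0.789 and 0.588 (replicates 1, 3 and 4), a range that the LPS libraries of 72 h overlapped. With cell extract the ratio was 5.06, 6.50, 4.51 and 4.30 at 8 h, 1.27, 1.53 and 1.72 at 24 h and 0.603, 0.710 and 0.700 at 72 h, the last within the control range of 72 h. At 8 h it overlapped that of LPS (difference in mean log2 ratio 0.19; exact permutation test, two-sided, p = 0.286, adjusted over 6 ratio tests 0.286).

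**Figure D4:**
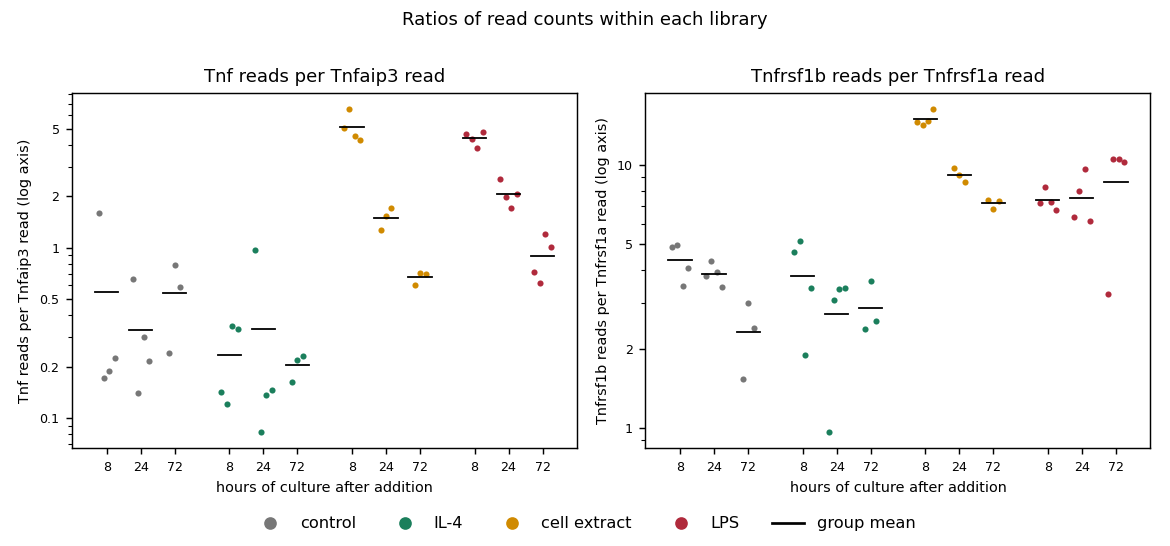
Reads of Tnf per read of Tnfaip3 (left) and of Tnfrsf1b per read of Tnfrsf1a (right) in each library (vertical axes, log scale), by stimulus and hours of culture; bars are group means. The left panel falls from 3.85 to 4.78 with LPS at 8 h to 0.620 to 1.20 at 72 h, and in the right panel cell extract at 8 h is highest, at 14.2 to 16.3.

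Other genes of the pathway, taken from lists, moved in both directions at 8 h. Of 18 components of the receptor complex, counts were 8 up and 0 down of 18 tested with LPS, 6 up and 0 down with cell extract and 2 up and 0 down with IL-4, to be read beside 21.3% up and 24.1% down of all genes with LPS, 13.0% and 17.2% with cell extract, and 4.29% and 4.04% with IL-4. The Traf adaptors Traf5 and Traf2 rose with LPS (3.55-fold and 4.09-fold) and with cell extract (3.24-fold and 2.60-fold). Birc2, the cIAP1 ligase, rose 2.75-fold with LPS, and Ikbkg, the NEMO subunit of the IkB kinase, rose 1.83-fold with cell extract.

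Of 7 genes of the death branch, counts were 5 up and 0 down of 7 tested with LPS, 3 up and 2 down with cell extract and 1 up and 2 down with IL-4. Cflar, which holds back caspase 8, rose 13.9-fold with LPS (log2 3.80 ± 0.13, SE; adjusted p = 1.5e-24) and 5.44-fold with cell extract. Mlkl, the effector of necroptosis, rose 20.6-fold with LPS and 1.99-fold with cell extract, from a mean of 20.3 CPM in control to 419 and 40.5 CPM. Bid, a pro-apoptotic partner of the Bcl2 proteins, rose 2.96-fold and 1.85-fold.

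Of 12 further ubiquitin-editing and IkB genes, counts were 6 up and 1 down of 12 tested with LPS, 4 up and 4 down with cell extract and 0 up and 1 down with IL-4. The IkB proteins Nfkbie and Nfkbia, which hold NF-kB in the cytosol, rose 27.4-fold and 21.6-fold with LPS and 15.4-fold and 14.4-fold with cell extract, and Nfkbib rose 2.86-fold with cell extract. Usp18, an interferon-induced protease that removes ISG15, rose 66.7-fold with LPS. Of 12 genes that act in the decay of cytokine mRNA, counts were 4 up and 2 down of 12 tested with LPS, 3 up and 4 down with cell extract and 2 up and 1 down with IL-4. Zc3h12c, a relative of Zc3h12a, rose 12.8-fold with LPS and 16.8-fold with cell extract (log2 4.07 ± 0.28, SE; adjusted p = 7.45e-15), N4bp1 rose 4.99-fold and 2.04-fold, Zfp36 (tristetraprolin, which binds Tnf mRNA) rose 3.23-fold with LPS, and Zfp36l2 fell 2.15-fold with cell extract.

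Of 7 partners of Malt1, 5 were tested, and counts were 3 up and 2 down of 5 tested with LPS, 1 up and 2 down with cell extract and 0 up and 1 down with IL-4. Bcl10, which joins Malt1 to Card proteins, rose 2.21-fold with LPS and 1.74-fold with cell extract. Casp8 rose 2.69-fold with LPS and fell 1.32-fold with cell extract. Card9 fell 2.15-fold with LPS. Of 14 genes of the Tnf locus and of Tnf release, counts were 8 up and 2 down of 14 tested with LPS, 6 up and 2 down with cell extract and 1 up and 1 down with IL-4. Adam17, the protease that frees Tnf, rose 2.02-fold with cell extract, its cofactor Rhbdf2 rose 5.62-fold with LPS, the intramembrane protease Sppl2a rose 4.50-fold and 2.01-fold, and Tnfaip2 rose 3.93-fold and 3.46-fold.

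Among other ligands of the family 9 of 14 were tested, and counts were 6 up and 2 down of 9 tested with LPS, 4 up and 2 down with cell extract and 0 up and 0 down with IL-4. Tnfsf9 (4-1BB ligand) rose 37.0-fold with LPS and 23.7-fold with cell extract, Tnfsf10 (TRAIL) and Tnfsf15 (TL1A) rose 58.0-fold and 77.0-fold with LPS, and Tnfsf12 (TWEAK) and Tnfsf13 (APRIL) fell 2.87-fold and 3.12-fold with cell extract. Among other receptors of the family 17 of 22 were tested, and counts were 9 up and 6 down of 17 tested with LPS, 8 up and 5 down with cell extract and 1 up and 0 down with IL-4. Cd40 rose 86.7-fold with LPS, Fas rose 9.78-fold with LPS and 8.64-fold with cell extract, Tnfrsf8 (CD30) rose 14.6-fold and 4.50-fold, and Tnfrsf23 fell 3.22-fold with cell extract.

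Likeness of pattern was measured as Pearson's r of log2(CPM + 0.5) over the 44 libraries among 9515 genes with a mean of at least 5 CPM, and is given as a description, since the libraries fall into the study's groups and share their controls. The 5 genes most like Tnf were Cxcl2 (r = 0.977), Ptgs2 (0.975), Il12a (0.974), Il1a (0.974) and Il1b (0.973), 3 of them cytokines, with a chemokine and the inducible cyclooxygenase. Those most like Tnfaip3 were the adenosine receptor Adora2a (0.979), the kinase Mapkapk2 (0.977), Il1a (0.975), the NF-kB subunit Nfkb2 (0.972) and the adaptor Lcp2 (0.971). Among the members, Tnf and Tnfaip3 had r = 0.955, and Tnfaip3 and Malt1 0.967. Tnip3 was least like the rest, with r from 0.310 (Tnfrsf1a) to 0.630 (Tnfaip3).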

How the data were processed

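RNA counts of 44 libraries in 12 groups were used. Per the submitters' processing notes, reads were handled with cutadapt, Bowtie2, TopHat2 2.1.1, HTSeq, DESeq and edgeR on build mm10. A deposited script removed the first 3 bases and dropped reads under 18 nt. The deposited values are raw counts per Ensembl gene. Neither annotation release nor strand setting is given in the sources used here. Ambiguous reads, 5.39% of gene and ambiguous reads, and the other rows that name no gene were left out of library sizes and tests.

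From these counts, edgeR 4.0.16 (R 4.3.3) kept 14537 of 46078 genes (filterByExpr, minimum count 10), scaled libraries by TMM and fitted 1 quasi-likelihood model to all groups (common biological coefficient of variation 0.219, with 32 degrees of freedom left for the residuals), with Benjamini-Hochberg adjustment over all tested genes in each comparison. Ratios given per library are plain quotients of read counts. The log2 ratios compared by exact permutation tests were taken after adding 0.5 to each count. Intervals are 95%. Positions and lengths come from GENCODE M21, which holds 45143 of the 46078 IDs (935 not found). No pair of libraries in a group agreed within sampling noise. The scripts were tested on simulated data.

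All 10 members are named, with up to 3 genes of smallest p per pathway list in LPS and in cell extract at 8 h, and the 5 genes most like Tnf and Tnfaip3. Of the genes this rule names, 1 is not reported here. The members and lists were chosen with earlier results of these data known. Same-numbered cultures deviated together in every pair (r over 0.1) for LPS against control at 8 h (0.13 to 0.52) and 24 h (0.13 to 0.61), cell extract against control at 8 h (0.15 to 0.63) and cell extract against LPS at 24 h (0.10 to 0.22). They also did so for cell extract against control at 72 h (0.28 to 0.31), which had only 2 such pairs and is not counted among the paired comparisons. The alternatives were DESeq2 1.42.0, RLE scaling, no filter, a fit of the compared groups alone, a replicate block, libraries left out in turn, and the first controls of 8 and 24 h left out. Leaving out libraries of over 10% ambiguous reads, or of under 2 M counts, was added after seeing the data.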

Additional observations from a re-analysis of the deposited data

Results flagged for a closer look

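Of 80 sets of 1 member in 1 group of 4 libraries, 9 had a library far from the other three by Dixon's criterion, which chance alone meets in about 1 in 20 groups. In control at 8 h, replicate 1 was high for Tnf (96.4 CPM) and Traf1 (16.2 CPM). In IL-4 at 24 h, replicate 1, the shallowest library with 0.908 M counts, was high for Tnf (38.1 CPM), Tnfrsf1a (125 CPM) and Traf1 (7.63 CPM). IL-4 8 h replicate 3 was high for Tnfrsf1a (124 CPM), and control 24 h replicate 3 for Zc3h12a (18.5 CPM). Tnfaip3 was low in LPS 72 h replicate 1 (81.9 CPM) and in control 24 h replicate 4 (36.4 CPM).

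In 16 cases the effect of a stimulus differed between 72 and 8 h by edgeR's quasi-likelihood test of the difference itself. For LPS the differences in log2 change were -2.95 for Tnf, -1.79 for Tnfrsf1a, -0.99 for Tnfaip3 and -2.19 for Zc3h12a. For cell extract they were -3.54 for Tnf, -0.74 for Tnfrsf1a, -2.39 for Traf1, -0.65 for Birc3, -0.92 for Tnfaip3, -1.75 for Tnip1, -0.97 for Tnip3, -2.41 for Zc3h12a and -1.95 for Malt1. For IL-4 they were -0.60 for Tnfrsf1a, 1.09 for Tnfaip3 and 0.80 for Tnip3. Markers of mesothelial cells and fibroblasts were higher in control at 72 h (511 to 1131 CPM summed) than at 8 h (133 to 154 CPM), and their part in these differences was not tested.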

How the results depend on the processing

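Of 147 values given for the members, 142 kept their direction and side of the threshold with DESeq2 and 142 with RLE scaling, 140 with the replicate block, 132 without a filter, 125 when only the compared groups were fitted, 130 without libraries of over 10% ambiguous reads, 133 without those under 2 M counts and 135 without the first controls of 8 and 24 h. With a library left out in turn, 1190 of 1284 did so, 76 lost and 13 gained a call, and 5 changed sign. The cause was not tested for any of the changes given here.

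The number of members called between cell extract and LPS at 24 h, 1, became 2 with DESeq2, 3 without a filter, 6 when only the groups compared were fitted and 3 without libraries under 2 M counts, and ran from 1 to 2 with a library left out. For IL-4 at 24 h it went from 2 to 1 when only the groups compared were fitted, without libraries over 10% ambiguous and without the first controls (1 to 2 with a library left out), at 8 h from 1 to 2 without a filter, and at 72 h from 4 to 2 without libraries over 10% ambiguous (2 to 4 with a library left out). For the change of the IL-4 effect it went from 3 to 0 when only the groups compared were fitted and to 1 without libraries under 2 M counts (0 to 3 with a library left out). For the change of the cell extract effect it went from 9 to 5 without libraries over 10% ambiguous. For control at 72 against 8 h it went from 2 to 1 when only the groups compared were fitted and to 0 without the first controls (0 to 2 with a library left out).

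The signs that turned belong to values that were not called. Without the first controls, Tnf was 0.67 for control at 72 against 8 h (-1.56 to 0.67 with a library left out), 0.29 for IL-4 at 8 h (-1.87 to 0.30) and -0.53 for the change of the IL-4 effect (-0.54 to 1.74), and Traf1 was 0.20 for IL-4 at 8 h (-0.58 to 0.20). Without libraries under 2 M counts, Tnfrsf1a was -0.028 for IL-4 at 8 h (-0.016 to 0.22 with a library left out).

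With the replicate block, 4 calls were lost and 3 gained, 2 members were called for IL-4 at 8 h and 2 at 72 h, and no call changed in the 4 comparisons of 2 groups where the numbers paired the cultures, ratios aside. Under the block the ratio differences, -1.10 and -2.36 for Tnf to Tnfaip3 with LPS at 24 and 72 h, and 0.77, 0.94 and 1.80 for Tnfrsf1b to Tnfrsf1a, had the smallest p that 4 pairs allow, so no call was possible. The lowest count behind any member's value was 7.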
